A study of Rattus norvegicus with 6 samples.

Results

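The 9 microRNA genes described here are Mir96, Mir182, Mir183, Mir204, Mir211, Mir184, Mir132, Mir212 and Mir329, out of 18166 genes measured on arrays of the rat retina. They were taken by name from the rows of the array that carry exactly 1 gene symbol, and each of the 9 was found on a single row. The list was chosen by gene name when results of these arrays, the HCDDP minus diabetic differences and the signals among them, were already known. The differences between the groups are therefore given for these genes as a description, without a test. There were 2 groups with 3 Affymetrix Rat Gene 2.0 ST arrays each. The HCDDP group, labelled Danshen-treated, were diabetic rats given Compound Danshen Dripping Pill (CDDP, made of Danshen, notoginseng and borneol) by gavage for 12 weeks at 0.4 g/kg/d. The diabetic group were diabetic rats given saline. All were male Sprague-Dawley rats, 5 weeks old at the start, in which diabetes was induced by 4 weeks of high fat diet and then streptozotocin, a toxin of the insulin-producing beta cells, so that both groups share the diet and the toxin. The labels give no dose, and an age of 17 weeks for every array, which is younger than the start age, diet and treatment in the methods add up to. Neither the labels nor the methods say whether an array held RNA of a single rat, and the spread between arrays may therefore be technical.

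MicroRNAs are cut from hairpins that lie in longer primary transcripts. The nuclear enzyme Drosha, with its partner Dgcr8, releases the hairpin, Dicer1 cuts it to a duplex of short RNAs, and an Argonaute protein keeps 1 strand and uses it to repress messenger RNAs that pair with its seed. The array probes recognise the hairpin or the primary transcript, so a signal here is not a level of mature microRNA. In the retina the Mir183, Mir96 and Mir182 cluster is known from photoreceptors and other sensory cells, Mir204 and Mir211 from the pigment epithelium and the neural retina, and Mir184 from lens, cornea and retina. Mir132 and Mir212 are induced by neuronal activity through the transcription factor CREB, and Mir329 belongs to a large imprinted microRNA cluster between Dlk1 and Dio3 that is active in neurons.

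The mature sequences in the RefSeq table of the rat genome (build GRCr8), which held a mature sequence for all 9 genes, show which of them can pair with the same targets. The 9 mature strands below run 5′ to 3′, with the seed, bases 2 to 8, in capitals.
rno-miR-204-5p: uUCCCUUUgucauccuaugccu
rno-miR-211-5p: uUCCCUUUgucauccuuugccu
rno-miR-132-3p: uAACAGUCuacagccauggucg
rno-miR-212-3p: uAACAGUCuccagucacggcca
rno-miR-96-5p: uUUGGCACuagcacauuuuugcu
rno-miR-182: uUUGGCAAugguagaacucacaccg
rno-miR-183-5p: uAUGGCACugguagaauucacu
rno-miR-184: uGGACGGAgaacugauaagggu
rno-miR-329-3p: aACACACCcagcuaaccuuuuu
The seed is shared within 2 pairs, miR-204-5p with miR-211-5p and miR-132-3p with miR-212-3p. Those of miR-96-5p and miR-182 share bases 2 to 7 but not base 8, and those of miR-183-5p, miR-184 and miR-329-3p were not shared within the list. Among all other rat mature sequences in the table, only miR-362-3p, from a gene on chromosome X, had a seed of these 9 strands, that of miR-329-3p.
rno-miR-362-3p: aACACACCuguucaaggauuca
The hairpin of Mir329, whose signal differed most between the groups, lies at chr6:134547913-134548009 on the plus strand of GRCr8. Both of its mature strands are in capitals, and the second of them is miR-329-3p.
Mir329 hairpin: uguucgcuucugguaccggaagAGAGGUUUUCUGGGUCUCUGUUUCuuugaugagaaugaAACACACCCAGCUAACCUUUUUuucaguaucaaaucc

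The arrays carried strong signals of retina, but also of other parts of the eye. The rod genes Sag and Gnat1 lay above the 99th percentile of all genes, and so did Krt12 and Aldh3a1, which mark corneal epithelium, and Cryba1 and Mip, which mark lens. The median log2 difference, HCDDP minus diabetic, lay between −0.41 and −0.17 for the lists of rod, cone, Muller glia, bipolar, ganglion and amacrine cell markers. It was −0.73 for 5 markers of corneal and scleral stroma and −0.96 for 4 markers of gut epithelium, with 3 markers of each list past the paper's threshold in the lower direction, where 2.28% of all genes passed. That threshold asks for a fold change over 1.5 and an unadjusted p below 0.05, and limma's test on all genes supplied the p. No marker of the retinal cell lists passed it in either direction. Within those lists the rod gene Nrl, at 0.44 without overlap, and the Muller glia gene Rlbp1, at 0.06, ran the other way. Of the gut markers, Fabp2 was at −2.75 and was the 1 gene of 18166 with an adjusted p below 0.05 (0.036 from limma). Si and Cdh17 also passed the paper's threshold but were weak, at the 16th and 24th percentile of all genes, and Vil1 did not pass. The presence of gut cells was not tested. In bulk tissue, fewer cells of a type and less RNA per cell cannot be told apart. The range between the 10th and 90th percentiles of the log2 signal was 4.48 to 4.94 in the HCDDP arrays and 4.45 to 5.19 in the diabetic arrays, and it was narrowest in array 3 of each group.

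**Figure D1:**
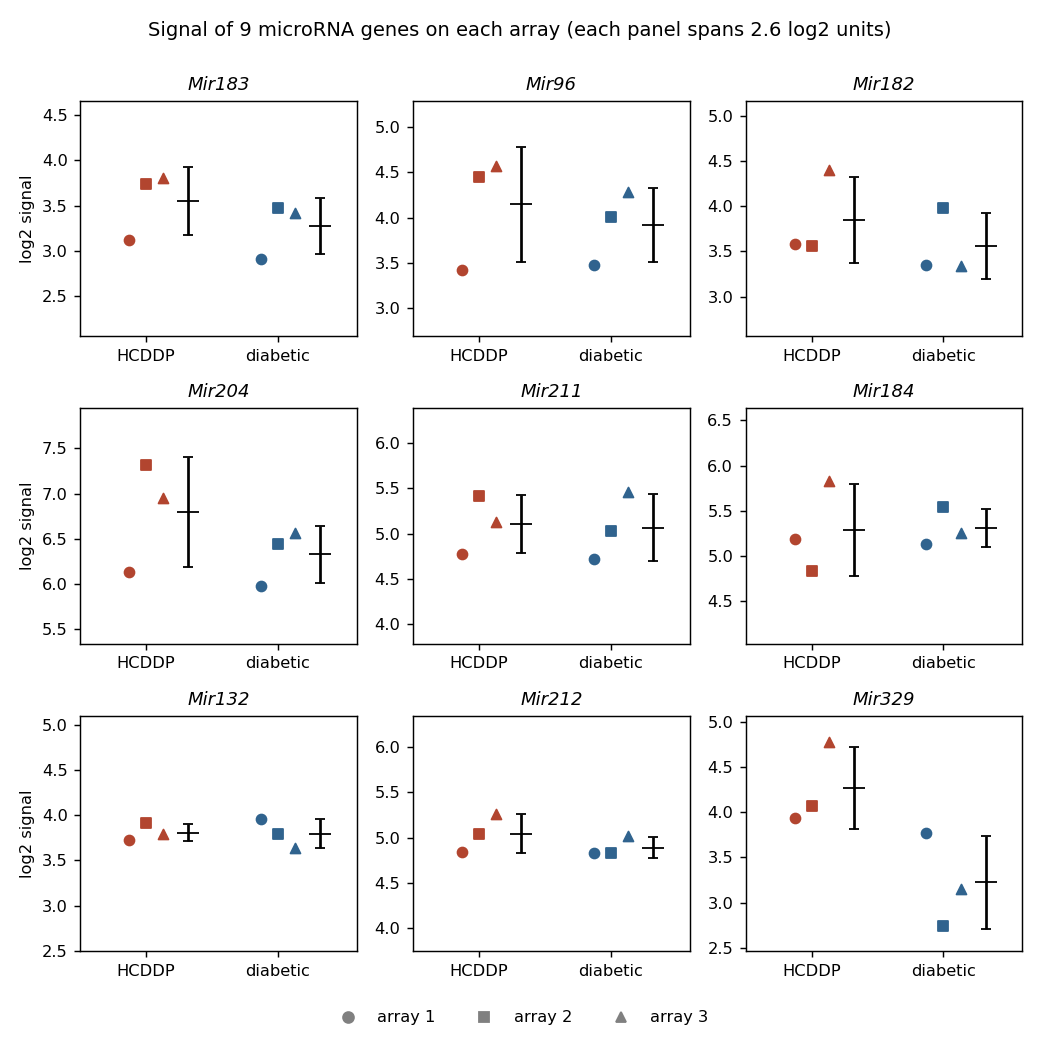
Log2 signal (y axis) of the 9 microRNA genes on each array, with HCDDP arrays on the left and diabetic arrays on the right of each panel, symbols for the array number, and bars for mean ± SD (n = 3 each). Mir329 is the gene whose groups do not overlap, and Mir183, Mir96, Mir204 and Mir211 are lowest in array 1 of both groups.

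The Mir183, Mir96 and Mir182 genes, which are made as 1 primary transcript in photoreceptors, had slightly higher means in the HCDDP group, with differences within the spread between arrays. They lie within 3908 bases on the minus strand of chromosome 4, and no other gene of the RefSeq table spans them. Mir183 had log2 signals of 3.12, 3.74 and 3.81 in HCDDP arrays 1, 2 and 3, against 2.92, 3.48 and 3.42 in diabetic arrays 1, 2 and 3. The groups overlapped, but comparing arrays by number the HCDDP array was always the higher one, by 0.21, 0.26 and 0.39. The log2 difference of Mir183 was 0.28 (limma standard error 0.24), and it stayed above 0 in all 16 alternatives, some of which leave the difference unchanged by design.
Mir96 had 3.42, 4.45 and 4.57 in the HCDDP arrays, against 3.48, 4.0 and 4.28 in the diabetic arrays, again with array 1 lowest in both groups and with overlap. Its difference of 0.22 (standard error 0.33) ranged between 0.00 without diabetic array 1 and 0.59 without HCDDP array 1. Mir182 had 3.58, 3.55 and 4.39 in the HCDDP arrays, against 3.35, 3.98 and 3.34 in the diabetic arrays, and its difference was 0.29 (standard error 0.28). HCDDP array 3 alone stood above the diabetic arrays. Without it the difference of Mir182 was 0.01, and the pair of arrays numbered 2 ran the other way, at −0.43. Mir183 and Mir96 followed each other across the 6 arrays, with a root mean square difference of 0.18 log2 units once each was centred on its own mean, the smallest among all pairs of the 9 genes. Mir182 was closest to Mir184, at 0.21, and not to its neighbours. The signals were weak, between the 8th and the 14th percentile of all genes for these 3 genes.

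Mir204 was higher on average in the HCDDP group while Trpm3, the ion channel gene that holds it, was lower. Mir204 had log2 signals of 6.13, 7.31 and 6.95 in HCDDP arrays 1, 2 and 3, against 5.98, 6.44 and 6.57 in the diabetic arrays. The groups overlapped through HCDDP array 1 only, and each HCDDP array was above the diabetic array of its number, by 0.16, 0.87 and 0.38. The log2 difference was 0.47 (standard error 0.31), it was 0.80 without HCDDP array 1, where Mir204 passed the paper's threshold, and 0.21 without HCDDP array 2. Trpm3 had 8.08, 8.30 and 8.34 in the HCDDP arrays, against 8.56, 9.11 and 8.64 in the diabetic arrays, with no overlap. Its difference of −0.53 (standard error 0.20, adjusted p = 0.782 from limma) fell short of the fold change.
Mir211, which shares its seed with Mir204, had means close to each other in the groups. It had 4.77, 5.41 and 5.13 in the HCDDP arrays, against 4.71, 5.03 and 5.45 in the diabetic arrays, a difference of 0.04 (standard error 0.24), and the value lay between −0.14 and 0.23 as single arrays were left out. Its host is Trpm1, the channel of ON bipolar cells and melanocytes, whose 8.97, 9.38 and 9.17 in the HCDDP arrays against 9.16, 9.32 and 9.14 in the diabetic arrays gave a difference of −0.03 (standard error 0.17, adjusted p = 0.976 from limma). Both hosts are spans on the same strand as the hairpin on chromosome 1. The pigment epithelium markers had a median difference of −0.20 and the melanocyte markers of −0.22, and their part in the Mir204 signal was not tested.

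**Figure D2:**
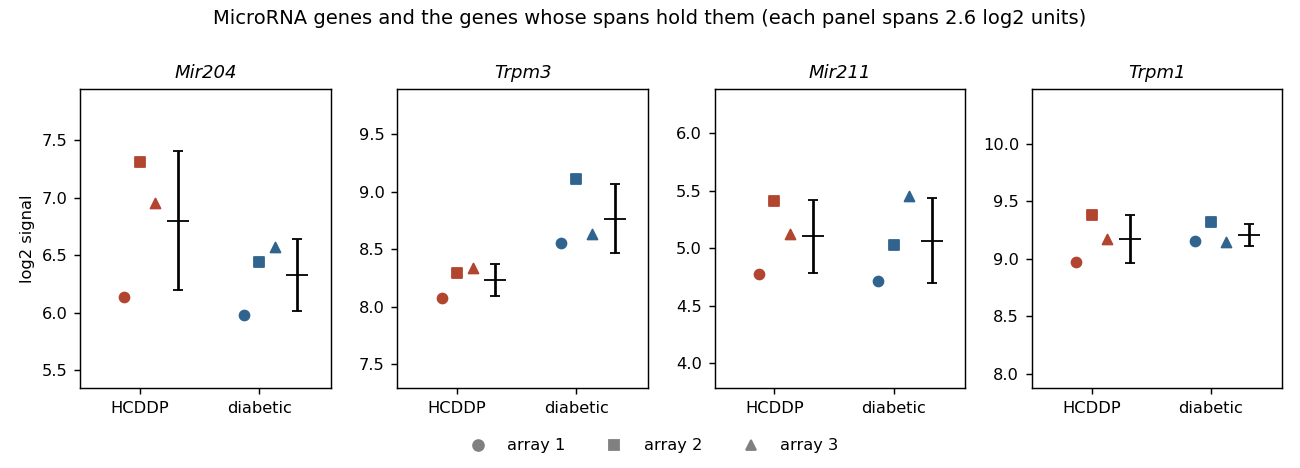
Log2 signal (y axis) of Mir204 and Mir211 and of the genes whose spans hold them, Trpm3 and Trpm1, with HCDDP arrays on the left and diabetic arrays on the right, symbols for the array number, and bars for mean ± SD (n = 3 each). Trpm3 does not overlap between the groups and is lower in HCDDP arrays, by 0.53 log2 units on average, while Mir204 is higher by 0.47 and overlaps.

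Mir184 did not separate the groups in either direction. Its log2 signals were 5.19, 4.83 and 5.83 in the HCDDP arrays, against 5.14, 5.54 and 5.26 in the diabetic arrays, so that the HCDDP arrays held both the lowest and the highest value. The difference was −0.03 (standard error 0.26), with pairs of the same number at 0.05, −0.71 and 0.58, and from −0.30 to 0.20 as single arrays were left out. The mean signal of 5 lens markers was 10.7 to 11.3 in the HCDDP arrays and 10.9 to 11.4 in the diabetic arrays, and that of 4 corneal epithelium markers was 10.6 to 11.1 and 10.6 to 10.9. The part of lens or cornea in the Mir184 signal was not tested.

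Mir132 and Mir212, which lie within 394 bases on the plus strand of chromosome 10 and share a seed, showed the smallest spread of the 9 genes. Mir132 had log2 signals of 3.73, 3.91 and 3.79 in the HCDDP arrays, against 3.96, 3.79 and 3.63 in the diabetic arrays, a difference of 0.01 (standard error 0.16) with full overlap. Mir212 had 4.84, 5.04 and 5.26 in the HCDDP arrays, against 4.83, 4.83 and 5.02 in the diabetic arrays. The HCDDP array of Mir212 was higher in each pair, by 0.01, 0.21 and 0.24, and the difference was 0.15 (standard error 0.17).
A list set beside these microRNAs held 7 genes that, like them, neuronal activity can induce, and the factors Creb1 and Crem. Whether any of the listed genes drives Mir132 or Mir212 here was not tested. Of the 9, 3 passed the paper's threshold in the lower direction, where 2.28% of all genes did, and 0 in the higher direction. Npas4, an activity-dependent transcription factor of neurons, had 5.09, 4.79 and 5.28 in the HCDDP arrays, against 6.56, 5.88 and 5.46 in the diabetic arrays, a difference of −0.92 (standard error 0.28) with no overlap. The early response gene Egr1 was at −0.90 (standard error 0.38) and the nuclear receptor gene Nr4a1 at −0.95 (standard error 0.36), both with overlap. Their adjusted p from limma was 0.782 for all 3, none of them passed by the methods' t-test, and Egr1 and Nr4a1 lost their call without HCDDP array 2 (−0.94 and −0.98) or 3 (−0.68 and −0.61) and without diabetic array 1 (−0.55 and −0.76) or 2 (−0.82 and −0.85). Fos was at −0.35 with overlap and did not pass. Bdnf, a neurotrophin, had 5.88, 5.42 and 6.15 in the HCDDP arrays, against 5.31, 5.32 and 5.31 in the diabetic arrays. Its groups did not overlap, with HCDDP higher, but its difference of 0.50 (standard error 0.21) fell short of the fold change. Junb was at −0.05, Crem at 0.06, Creb1 at 0.11 and Arc at 0.20, so that 4 of the 9 were above 0, and the median of the 9 genes was −0.05.

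Mir329 had the largest difference of the 9 genes and was 2.06-fold higher in the HCDDP group. Its log2 signals were 3.94, 4.07 and 4.78 in HCDDP arrays 1, 2 and 3, against 3.77, 2.75 and 3.16 in diabetic arrays 1, 2 and 3. The groups did not overlap, with 0.17 log2 units between HCDDP array 1 and diabetic array 1, while the signals spread over 0.84 within the HCDDP group and 1.02 within the diabetic group. It averaged 4.26 ± 0.45 in HCDDP arrays and 3.22 ± 0.51 in diabetic arrays (SD, n = 3 each), which puts the log2 difference at 1.04 (standard error 0.31). The arrays numbered 1 contributed little, since the pairs of the same number differed by 0.17, 1.33 and 1.62. As single arrays were left out the difference ran from 0.78, without HCDDP array 3, to 1.31, without diabetic array 1, and it was 0.75 once array 3 of each group was dropped together, a step added with the values in view. The signal was weak, at the 11th percentile of all genes.
At the paper's threshold Mir329 was the 1 gene of the 9 that passed with limma, where 582 of 18166 genes, or 3.2%, passed, and 0 of the 9 passed an adjusted p of 0.05, where 0.0055% of all genes did. An unadjusted p under 0.05 was found for 1 of the 9 by limma, against 6.05% of all genes, and for 0 by the methods' t-test, by which 0 of the 9 passed either rule. The count of 1 became 2 without HCDDP array 1, where Mir204 joined, and 0 without both arrays numbered 3. Groups without overlap were found for 1 of the 9 genes and for 10.7% of all genes. Mir183, Mir204, Mir212 and Mir329, 4 of the 9, were higher in the HCDDP array at every array number, as were 17.6% of all genes. These shares are a description, since the list was chosen with the contrast in view. The median difference of the 9 genes was 0.22, against −0.01 over all genes.
Mir362, whose mature strand carries the seed of miR-329-3p, had 3.82, 4.09 and 4.18 in the HCDDP arrays, against 4.55, 4.21 and 4.11 in the diabetic arrays. Its difference of −0.26 (standard error 0.19, adjusted p = 0.795 from limma) had the opposite sign. The genes whose centred profile lay closest to that of Mir329 over the 6 arrays were the homeobox gene Hoxc9, with a root mean square difference of 0.24 log2 units, then Haus6, a subunit of the augmin complex of the mitotic spindle, at 0.25, Cyp11b3, a steroid hydroxylase gene, at 0.26, Mir3561 at 0.27, and the olfactory receptor gene Or8g35b at 0.30. With 6 arrays and 18166 genes such closeness is found for some genes in any table. None of the other 8 microRNA genes came closer to Mir329 than Mir212, at 0.56.

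**Figure D3:**
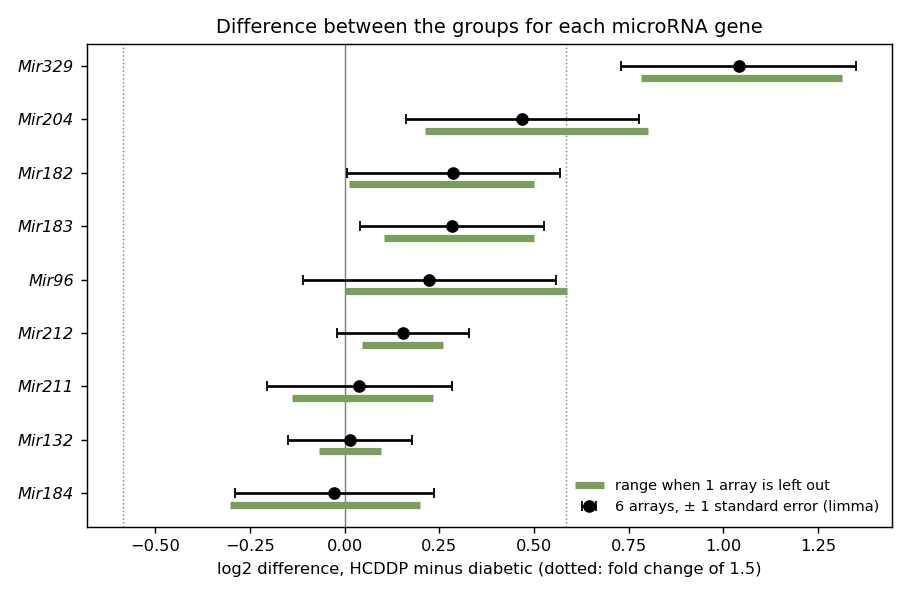
Log2 difference (x axis), HCDDP minus diabetic, for each of the 9 microRNA genes, with points and bars for the limma estimate ± 1 standard error from 6 arrays and thick lines for the range as single arrays are left out. Mir329 lies at 1.04 and stays above the dotted fold change of 1.5 in that range, while the other 8 genes lie between −0.03 and 0.47.

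In the cluster that holds Mir329, most microRNA genes had a positive difference. The imprinted genes of the Dlk1 to Dio3 region of chromosome 6 are each expressed mainly from 1 parental chromosome, which is not the same one for all of them. Most microRNAs of the region lie in long noncoding transcripts of the maternal chromosome. RefSeq places 59 microRNA genes there, and 53 were measured, 19 of them with no RefSeq gene on the same strand that spans them. A positive difference was found for 42 of the 53, or 79.2%, against 48.4% of all genes. The median log2 difference was 0.15, and 5 passed the paper's threshold, all higher in the HCDDP group, or 9.43%. Over all genes 0.925% passed in that direction. Mir329 is 1 of the 5, and without it 4 of 52 passed, with a median of 0.14. Groups without overlap were found for 13 genes that were higher and 1, Mir665, that was lower, where 6.43% and 4.3% of all genes were higher and lower without overlap. None of the 53 passed an adjusted p of 0.05 by limma or by the methods' t-test, and 8 (15.1%) had an unadjusted p under 0.05 by limma and 9 (17.0%) by the methods' t-test, against 6.05% and 5.12% of all genes.
Mir770, at the Dlk1 end and inside the noncoding gene Meg3, had log2 signals of 6.09, 6.51 and 6.63 in the HCDDP arrays, against 5.42, 5.21 and 5.79 in the diabetic arrays. Its difference was 0.94 (standard error 0.22), and it passed the paper's threshold in every alternative that tested it at that fold change. Mir134, known in rat neurons for a role in dendritic spines through Limk1, had 5.82, 5.42 and 6.28 in the HCDDP arrays, against 5.06, 5.23 and 5.15 in the diabetic arrays, a difference of 0.69 (standard error 0.23). Mir668 was at 0.64 (standard error 0.20) and Mir323 at 0.61 (standard error 0.15). None of these 4 genes overlapped between the groups, and limma's adjusted p was 0.782 for each.
Mir134 lost its call by the methods' t-test, with array weights (0.49) and without HCDDP array 3 (0.47). Mir668 lost it without HCDDP array 3 (0.50) or diabetic array 2 (0.55). Mir323 lost it after quantile normalization (0.57), with array weights (0.55), without diabetic array 3 (0.57) and without HCDDP array 1 (0.56). Mir770 was the 1 gene of the 5 that also passed without both arrays numbered 3. Of the named genes of the region that are not microRNAs, 3 were measured and none passed. Meg3 had a difference of 0.25 (standard error 0.22), Dio3, a deiodinase, of 0.31 (standard error 0.19) and Dlk1, a Notch-related ligand, of 0.07 (standard error 0.16), all with overlap. Mir329 and Mir323 lie in the span of the noncoding gene LOC102555254, which was not analysed here, together with 13 other genes of the 53.
The microRNA rows of the cluster were weak, with a median log2 signal of 3.21. Rows with a signal under 5 as a whole leaned the same way when all 6 arrays were used, but their median signal was higher, at 4.04. The decile of all genes with the lowest signals, from 1.62 to 3.61, had a median difference of 0.01. The 4777 genes with a mean log2 signal under 5 that are not microRNA genes had a median difference of 0.04, with 56.6% above 0 and 2.03% past the paper's threshold. After quantile normalization their median was −0.00 and that of the cluster was 0.10, with 38 of 53 genes above 0 and 4 past the threshold. The median of the cluster ran from 0.10 to 0.18 over the alternatives. That of the 4777 weak genes ran from −0.03, without HCDDP array 3, to 0.16, without diabetic array 3.

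**Figure D4:**
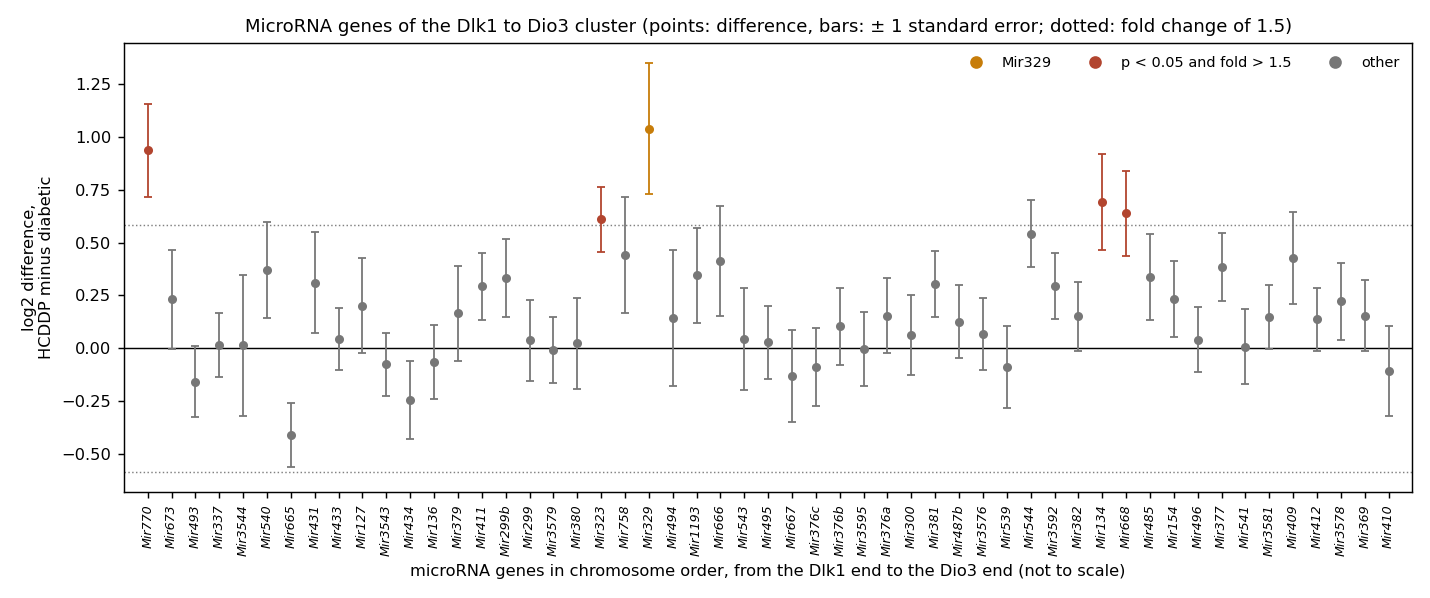
Log2 difference (y axis), HCDDP minus diabetic, with bars of ± 1 standard error from limma, for the 53 measured microRNA genes of the Dlk1 to Dio3 cluster in chromosome order (x axis, not to scale). Mir329, Mir770, Mir134, Mir668 and Mir323 lie above the dotted fold change of 1.5, and 42 of the 53 points lie above 0, against 48.4% of all genes.

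Outside the 9 genes, 354 further microRNA genes were measured, 52 of them the cluster genes just described. The paper's threshold was passed by 15 that were higher in HCDDP arrays and by 3 that were lower, 5.08% together, where 3.2% of all genes passed. By direction, 0.925% of all genes passed as higher and 2.28% as lower. A positive difference was found for 226 of the 354, or 63.8%, against 48.4% of all genes, and their median was 0.08. The 302 genes outside the cluster had 11 higher and 3 lower past the threshold, 4.64% together, and a median of 0.08. Of these 302 genes, 61.3% were above 0, so the positive lean was not confined to the cluster. None of the 354 passed an adjusted p of 0.05 by limma or by the methods' t-test, and 29 (8.19%) had an unadjusted p under 0.05 by limma and 21 (5.93%) by the methods' t-test, against 6.05% and 5.12% of all genes. Beside Mir770 and Mir134, the largest rises without overlap were those of Mir298 at 0.80 (standard error 0.24), Mir126a, a microRNA gene of endothelial cells, at 0.69 (standard error 0.19) and Mirlet7a1, of the let-7 family, at 0.67 (standard error 0.23). The falls were those of Mir101-2 at −0.93 (standard error 0.29), Mir8, the current RefSeq symbol of a gene also called Mir7-2, at −0.80 (standard error 0.26) and Mirlet7d at −0.60 (standard error 0.20). For all of these limma gave an adjusted p of 0.782. Mir207, named here after its values were seen, passed with a larger difference of 1.16 (standard error 0.48) but overlapped, with 7.84, 8.15 and 8.44 in the HCDDP arrays, against 5.84, 7.07 and 8.04 in the diabetic arrays. The calls were lost without HCDDP array 3 for Mir298 (0.56), Mirlet7a1 (0.48) and Mirlet7d (−0.54), without HCDDP array 2 for Mir126a (0.52), without HCDDP array 1 for Mir8 (−0.58), without diabetic array 1 for Mirlet7a1 (0.50) and without diabetic array 2 for Mirlet7d (−0.41). Mir101-2, Mir8 and Mirlet7a1 did not pass by the methods' t-test, and Mirlet7d did not after median centring (−0.57).

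Of 40 genes listed that make and use microRNAs, 35 were measured, with log2 differences between −0.78 and 0.35 and a median of 0.02. Drosha was at −0.15, Dgcr8 at 0.17 and Dicer1 at −0.11, 3 genes named for their roles. Cnot7, a deadenylase of the CCR4-NOT complex that shortens the tails of repressed messages, was the 1 gene past the paper's threshold, or 2.86% of the list, near the 3.2% of all genes. It had 7.90, 8.07 and 7.28 in the HCDDP arrays, against 8.65, 9.07 and 7.88 in the diabetic arrays, a difference of −0.78 (standard error 0.33, adjusted p = 0.782 from limma). Array 3 was lowest in both groups, and the call was lost without HCDDP array 1 (−0.86) or 3 (−0.55), without diabetic array 1 (−0.73) or 2 (−0.52) and by the methods' t-test.
Of 15 genes listed as targets of the 9 microRNAs from work in several species, 12 were measured and 0 passed the paper's threshold, by limma or by the methods' t-test, and 0 had an unadjusted p under 0.05 by either. Their median was −0.00. Meis2, a homeobox gene of eye development and a target of miR-204 in medaka fish, is named here, as are the next 3 genes, after its values were seen. It had 8.16, 8.61 and 8.47 in the HCDDP arrays, against 9.25, 9.36 and 8.42 in the diabetic arrays, a difference of −0.60 (standard error 0.27) with overlap through diabetic array 3. Mitf, a pigment cell regulator and a target of miR-96 and miR-182 in mouse, was lower in the HCDDP array of each pair and had a difference of −0.28 (standard error 0.17). Rasa1, a Ras GTPase-activating protein and a target of miR-132 in human and mouse endothelial cells, was at 0.15 (standard error 0.18), and Kdm1a, a histone demethylase listed for miR-329 from human cells, was at 0.17 (standard error 0.16).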

How the data were processed

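The authors hybridised biotin-labelled cDNA from total retinal RNA to Affymetrix Rat Gene 2.0 ST arrays and processed the scans with Expression Console Software 1.41. The table they deposited has 36685 probe rows, with the log2 signal of each array in a column. How the scans were background-corrected, normalized and summarised was not given in the sources used here. A gene annotation of the platform gave exactly 1 symbol for 18511 rows, several for 575 and none for 17599, which are unnamed here. Symbols were updated through gene identifiers for 18394 rows, and the row with the highest mean was kept for each of 18166 genes. The values were used as deposited, without a filter on signal.

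The HCDDP and diabetic groups, 3 arrays each, were compared with limma 3.58.1 in R 4.3.3 (lmFit and eBayes at their defaults), fitted on all genes with Benjamini-Hochberg adjustment, and the fit was tested on simulated data. The methods' t-test was an alternative. The 9 genes and all lists were chosen with earlier results of these data known. Other microRNA genes are named if they passed the paper's threshold without overlap, up to 5 in each direction. Of the other lists, genes past that threshold are named first. The 5 profiles closest to Mir329 were taken by root mean square difference. Symbols and positions come from RefSeq GRCr8, and the build of the array annotation is not given, so positions were used only to print sequences and to find neighbouring genes.

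With group means removed, the HCDDP and diabetic arrays numbered alike had correlations of 0.274, 0.292 and 0.445 over genes, so the replicate number was treated as a pairing in an alternative fit, although neither the labels nor the methods state one. No arrays held identical values, and correlations between arrays ran from 0.954 to 0.982. The number of arrays limits the precision. Python 3.11.15 with pandas 2.3.3 and matplotlib 3.10.9 drew the figures, and statmod 1.5.0 served for array weights.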

Additional observations from a re-analysis of the deposited data

How the results depend on the processing

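Mir329 stayed above 0 in all 16 alternatives in which it could be tested (0.75 to 1.31), Mir204 in all 17, and Mir183, Mir96 and Mir212 in all 16, while the sign of Mir132, Mir211, Mir182 and Mir184 varied with the alternative. Some of these alternatives, such as the methods' t-test, the replicate block and the averaging of rows, return the main difference of these genes by design. Such alternatives could not change its sign. No alternative moved the difference of any of the 9 genes by more than its SD between arrays, but leaving out 1 array of 3 cannot move it that far. The 582 of 18166 genes past the paper's threshold became 196 by the methods' t-test and 1362 with array weights. Without both arrays numbered 3 there were 1482, and at a fold change over 2 there were 90. The count was 381 of the 9083 genes above the median signal, and 1898 of all 36685 probe rows, unnamed rows included. As single arrays were left out the count ran from 323 to 1984. The count past an adjusted p, 1, became 0 by the methods' t-test, 0 among genes above the median signal only, 0 over all probe rows, 3 with array weights and 7 without both arrays numbered 3, and it ran from 0 to 311 as single arrays were left out, the highest without diabetic array 3. Of the 9 genes, 1 passed, or 0 by the methods' t-test, 0 among genes above the median signal only, which left Mir204 alone to test, and 0 without both arrays numbered 3, with 1 to 2 as single arrays were left out. Of the 354 other microRNA genes, 15 higher became 7 by the methods' t-test and 1 at a fold change over 2, with 4 to 28 as single arrays were left out. Only 19 of the 354 lay above the median signal, where 3 were higher past the threshold and the median difference was 0.20. The 3 lower among the 354 became 1 by the methods' t-test, 0 at a fold change over 2 and 0 of the 19 above the median signal. With array weights there were 8 lower and without both arrays numbered 3 there were 10, with 2 to 10 as single arrays were left out. The 5 higher genes of the Dlk1 to Dio3 cluster became 3 by the methods' t-test, 3 without both arrays numbered 3 and 1 at a fold change over 2, with 3 to 5 as single arrays were left out. With the replicate number as a block, the paired fit gave 840 genes past the paper's threshold and 5 lower among the other microRNA genes, and it changed no call of the 9 genes. Signals near the weak end of the range limit what can be seen for 8 of the 9 genes, which lay below the 33rd percentile of all genes.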
